A study of Monodelphis domestica with 2 samples.

Results

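Lamp5 interneurons are described here from single-nucleus RNA counts of opossum primary visual cortex (V1). Their members were the nuclei that the deposited annotation placed in the subclass Lamp5, which numbered 370 of the 4347 GABAergic nuclei that carried a subclass and of the 32764 labelled nuclei of all classes. The opossum is a marsupial, and the samples were 2 adult males, animal 1 aged 1.5 years and animal 2 aged 2 years, which formed a single untreated group. Each animal gave 2 libraries (1A and 1B, 2A and 2B) that were loaded from the same nuclear suspension, so the animal was the replicate and n was 2 throughout. V1 of both hemispheres was pooled within an animal, the nuclei were sorted on the DNA stain Draq5 before loading, and each animal was prepared by a different experimenter, so that animal, age and preparation cannot be told apart.

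Cortical inhibition is carried by interneurons that release GABA and that arise in the ventral forebrain of the embryo. In rodents and primates, cells of the Lamp5 class include the neurogliaform cells, which are dense in layer 1, fill the space around their axon with GABA and act through slow GABA receptors. Most of them are born in the caudal ganglionic eminence (CGE) or the preoptic area, like the Vip cells, whereas Pvalb and Sst cells come from the medial ganglionic eminence (MGE). The label takes its name from LAMP5, a membrane protein of the lysosome-associated family, and reelin (RELN), NDNF and neuropeptide Y are further genes by which such cells are commonly recognised.

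The Lamp5 nuclei were a minor GABAergic subclass. Libraries 1A and 1B of animal 1 held 84 Lamp5 nuclei each, which were 7.30% and 7.49% of their labelled GABAergic nuclei. Libraries 2A and 2B of animal 2 held 91 (10.5%) and 111 (9.21%). Per animal the share was 7.39% in animal 1 (exact Clopper-Pearson 95% interval 6.35 to 8.55%) and 9.73% in animal 2 (8.49 to 11.1%), with a mean of 8.56% ± 1.66 (SD, n = 2), so animal 2 was higher and the intervals just met. The libraries of an animal did not differ by a two-sided Fisher's exact test, with p = 0.873 in animal 1 and p = 0.368 in animal 2 (adjusted p = 0.873 and 0.736 over the 2 tests). Against all labelled neurons the animals lay closer together, at 1.48% and 1.54%. Lamp5 nuclei were 29.2% of the nuclei of the subclasses Lamp5, Vip and Frem1 in animal 1 and 33.4% in animal 2, Frem1 being a further subclass of the annotation with few nuclei. These intervals cover counting error only.

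**Figure D1:**
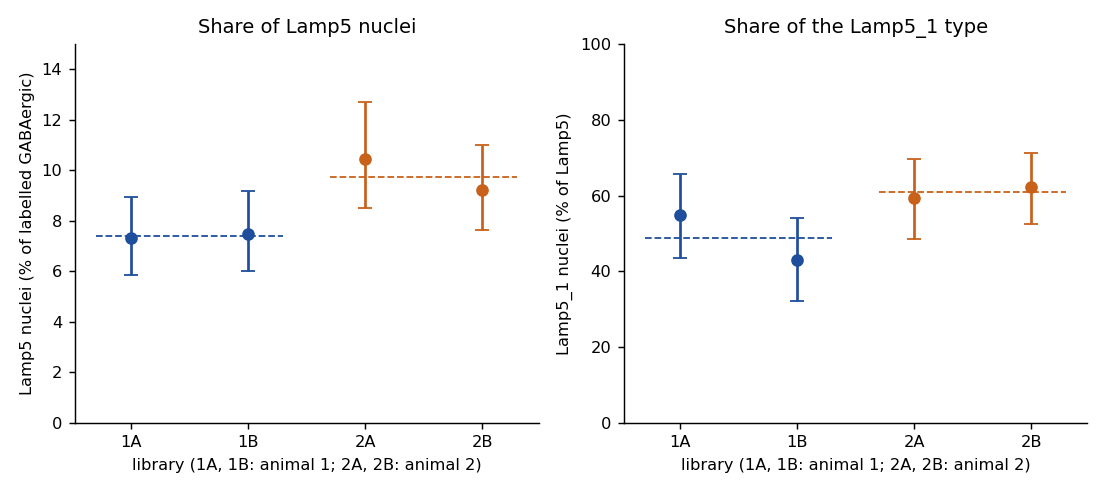
Left, Lamp5 nuclei as a percentage of labelled GABAergic nuclei; right, nuclei of the type Lamp5_1 as a percentage of Lamp5 nuclei, in each of the 4 libraries. Points are library values with exact 95% intervals and dashed lines are the values per animal (7.39% and 9.73% on the left, 48.8% and 60.9% on the right), and the libraries of each animal have overlapping intervals in both panels.

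The median Lamp5 nucleus held 6871, 6664, 7062 and 5111 UMIs (unique molecular identifiers, each standing for 1 RNA molecule) in libraries 1A, 1B, 2A and 2B. The mean of the animal medians was 6543 ± 354 UMIs (SD, n = 2), against 6265 ± 512 in the other labelled GABAergic nuclei. Summed over nuclei, Lamp5 held 1238194 UMIs in animal 1 and 1289648 in animal 2, out of whole-library totals between 55625042 and 69706055. Scrublet, a doublet caller, had marked 12 of the 370 nuclei. Cell barcodes that occurred in more than 1 library numbered 134, 3 Lamp5 nuclei carried one of them, and no barcode was shared by a pair of Lamp5 nuclei.

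Levels are given below as CPM, UMIs per 1000000 of the summed UMIs of a group. No gene lengths entered, so levels are compared between groups for the same gene and never between genes. The reference group was the 3977 other labelled GABAergic nuclei (2146 Pvalb, 1020 Sst, 506 Vip and 305 Frem1), summed within each animal. A gene was counted as measured when it reached 20 CPM in the higher group in both animals, which 6526 genes did, and as higher or lower when the ratio was at least 2 in the same direction in both animals. Because the subclasses were clustered from these same counts, no p-value was attached to any contrast between them, and the values are a description. By this rule 383 genes were higher in Lamp5 nuclei (5.87% of those measured) and 484 lower (7.42%), and the libraries of the groups did not overlap for 40.3%. Among the 4863 measured genes with a symbol, 246 were higher (5.06%) and 347 lower (7.14%).

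The levels of the label's own markers are a description, since the nuclei were labelled from these counts. LAMP5 itself stood at 150, 179, 206 and 216 CPM in libraries 1A, 1B, 2A and 2B of the Lamp5 nuclei, against 7.8 to 9.0 CPM in the other GABAergic nuclei, a log2 ratio of 4.47 ± 0.24 (SD, n = 2). Of the markers proposed for the subclass, HAPLN1, which encodes a link protein of the extracellular matrix, was at 210 and 181 CPM in animals 1 and 2 against 24.0 and 20.2. GAD2, 1 of the enzymes that make GABA, was at 1259 and 1117 CPM against 486 and 492. FREM1, a basement membrane protein, was at 59.0 and 76.8 CPM against 3.9 and 5.5, but it did not single out Lamp5 nuclei, since the Frem1 nuclei held 62.3 CPM.

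In this and the lists below, a member low in the reference was measured only if it was high in Lamp5, and the reverse, so counts and medians of measured members describe those members and not the whole list. Each count against the other GABAergic nuclei is to be set beside the 5.87% higher and 7.42% lower of all measured genes. The pooled reference is also mostly Pvalb and Sst nuclei, and of the 383 higher and 484 lower genes 123 and 125 were no longer called with the 4 subclasses weighted equally. Of 24 Lamp5 markers, 18 had a symbol in the files and 13 were measured. Of those 13, 9 were higher in Lamp5 nuclei (LAMP5, NDNF, KIT, RELN, FREM1, HAPLN1, GAD2, ADARB2 and TOX2), none was lower, and 4 passed neither threshold. Of the 9, ADARB2 was no longer called under equal weights. Their median log2 ratio was 1.70, against -0.05 over all measured genes. CPLX3, a complexin used as a Lamp5 marker elsewhere, had no count in the Lamp5 nuclei, which allows up to 3 counts of each animal's total. Neuropeptide Y (NPY) was at 2.7 CPM in Lamp5 nuclei and 1.3 CPM in the others, below the measured range in both. Its Lamp5 level rested on no count in animal 1 and 7 in animal 2, and 1.7% of Lamp5 nuclei held an NPY UMI against 0.86% of the others, as means of the animals.

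Markers of other cell types were measured in the same libraries, and their part in the contrasts was not tested. The Frem1 and Sncg list (5 of 8 genes with a symbol) was as high in Lamp5 as in its own cells, at 582 to 738 CPM in Lamp5, 499 to 732 CPM in Frem1 and 176 to 194 CPM in all other GABAergic nuclei. CCK made up most of these sums, at 575 CPM in Lamp5 and 516 CPM in Frem1 as means of the animals, and was also high in Vip (514 CPM). A list of striatal projection neurons (8 of 10, DRD2 at 0) summed to 713 to 887 CPM in Lamp5 and 1208 to 1376 CPM in the others. The summed level of the Vip marker list (10 of 10 genes with a symbol, CHAT at 0 in Lamp5) was 83.8 to 137 CPM in the Lamp5 libraries against 690 to 858 CPM in the Vip libraries. For the Sst list (9 of 12 genes with a symbol) the ranges were 123 to 172 CPM in Lamp5 and 481 to 577 CPM in Sst nuclei, and NOS1, a member of that list, contributed 103 and 128 CPM of the Lamp5 sums. The Pvalb list (8 of 12, with NOG and PTHLH at 0) was high throughout, at 9628 to 10879 CPM in Lamp5, 13370 to 14331 CPM in the other GABAergic nuclei and 17323 to 17962 CPM in Pvalb nuclei. Markers of oligodendrocytes summed to 124 to 287 CPM in Lamp5, of their precursors to 0 to 11.5 CPM (CSPG4 and OLIG2 at 0), of microglia to 3.3 to 13.3 CPM (C1QA at 0) and of endothelial cells to 28.1 to 52.2 CPM (CDH5 at 0). Astrocyte markers (9 of 9 with a symbol) summed to 116 to 310 CPM in Lamp5 and 300 to 327 CPM in the other GABAergic nuclei, far under the 21724 CPM or more of the astrocyte libraries. Glutamatergic markers (8 of 11) went the other way, with 440 to 568 CPM in Lamp5 and 96.9 to 138 CPM in the others. Of that list, SV2B, a synaptic vesicle protein, was at 424 and 389 CPM in the Lamp5 nuclei of animals 1 and 2. The glutamate transporter SLC17A6 was at 1.2 CPM and the cortical excitatory factor TBR1 at 6.3 CPM, against 1.3 and 3.9 CPM in the other GABAergic nuclei.

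The largest ratio belonged to NDNF. NDNF, a secreted neurotrophic factor, was at 77.6, 69.6, 73.6 and 88.4 CPM in libraries 1A, 1B, 2A and 2B, and the other GABAergic nuclei held 4 NDNF counts in animal 1 and 2 in animal 2. Those few counts give a ratio of 271 in animal 1 (95% counting interval 102 to 1015) and 505 in animal 2 (136 to 4225). QRFPR, the receptor of the peptide QRFP, was at 216, 188, 196 and 234 CPM against 1.6 to 3.3 CPM, a log2 ratio of 6.53 ± 0.21. All 4 Lamp5 libraries lay far above all 4 reference libraries for both genes.

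Next in size came PROM1, a membrane glycoprotein, with a log2 ratio of 6.03 ± 0.91. It gave 20 and 6 reference counts in animals 1 and 2, hence ratios of 41.7 (95% counting interval 25.04 to 72.3) and 102 (44.3 to 288), and the mean log2 ratio was 5.42 without library 1A and 6.65 without 1B. GRPR, the receptor of gastrin-releasing peptide, had a log2 ratio of 5.87 ± 0.19. GRPR stood at 470.4, 444, 502 and 470.0 CPM in the Lamp5 libraries and at 7.2 to 9.9 CPM in the others. KIT, the receptor tyrosine kinase of stem cell factor, was at 805, 890, 869 and 911 CPM against 21.9 to 26.3 CPM. These levels varied little between libraries, and the same held for PLCL1, a catalytically inactive relative of phospholipase C, at 1411, 1719, 1585 and 1405 CPM against 60.9 to 71.6 CPM (4.54 ± 0.03).

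The rest of the 15 highest ratios fell between 5.37 and 4.09 on the log2 scale. They belonged to TMEM163, a zinc transporter, CHRNA3, a nicotinic acetylcholine receptor subunit, the growth factor PDGFD, the membrane-bound transcription factor CREB3L2, the actin-associated protein PALLD, LAMP5, the Ras-like GTPase RIT2, and the guidance molecules SLIT3 and SEMA5A. The CHRNA3 level of Lamp5 nuclei differed between the animals, with 122 and 115 CPM in libraries 1A and 1B and 64.8 and 62.2 CPM in 2A and 2B. In both animals it remained more than 20 times the reference, at ratios of 47.3 and 21.5. With the 4 reference subclasses weighted equally, the log2 ratios of QRFPR and KIT were 4.89 and 3.50. Frem1 nuclei, 305 of the 3977, held 23.8 and 298 CPM of these genes. The rule for named genes (a symbol, a call in both animals and no overlap among libraries) was met by 245 genes higher in Lamp5.

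**Figure D2:**
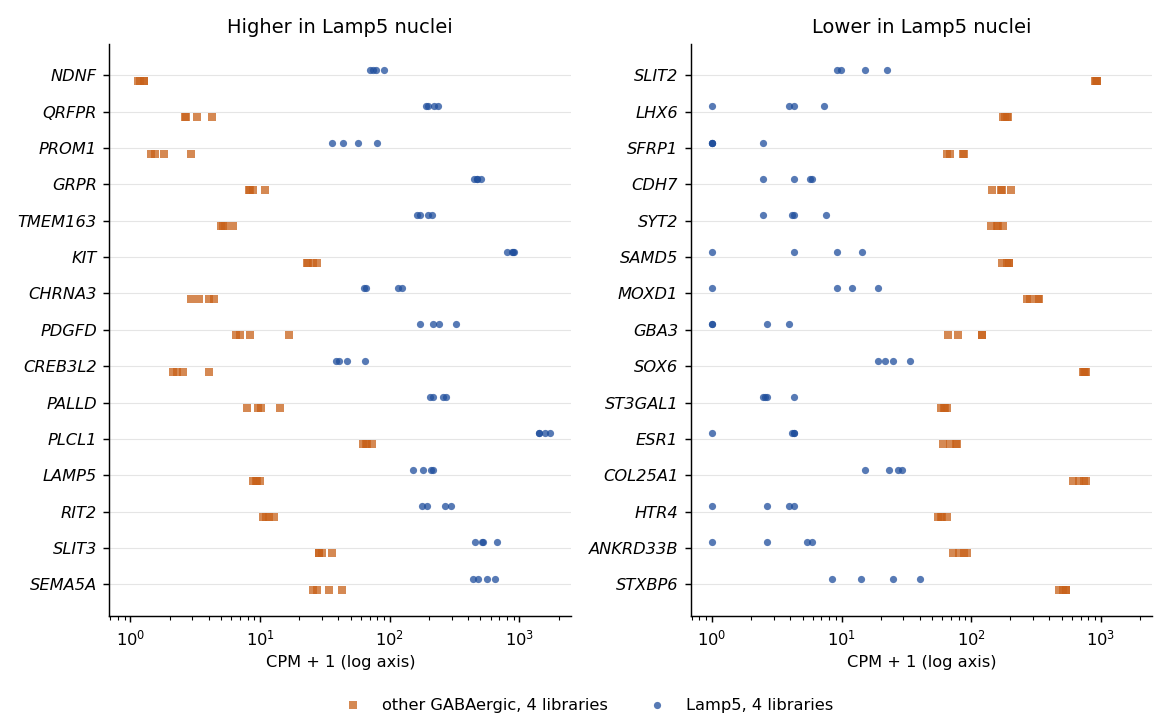
Level of the 15 genes with the largest ratio in each direction, as CPM + 1 on a log axis; each circle is a library of Lamp5 nuclei and each square a library of the other labelled GABAergic nuclei. No circle overlaps a square of the same gene, from NDNF at 69.6 CPM or more in Lamp5 to SLIT2 at 21.5 CPM or less.

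The lowest ratio belonged to SLIT2, which was lower in Lamp5 than in each of the 4 other GABAergic subclasses. SLIT2, a secreted guidance protein, was at 21.5, 14.2, 8.8 and 8.2 CPM in the Lamp5 libraries against 904 to 936 CPM in the others, a log2 ratio of -6.22 ± 0.75. LHX6, the transcription factor that MGE-derived interneurons keep as adults, gave 6 counts in animal 1 and 2 in animal 2, against 2794 and 2219 in the reference, and was 39.1-fold (95% counting interval 17.95 to 107) and 114-fold (31.6 to 944) lower. SOX6, which acts downstream of LHX6, was at 18.2, 23.7, 20.6 and 32.8 CPM against 725 to 768 CPM (-4.99 ± 0.21). The log2 ratio of LHX6 was -6.06, and -5.22 without library 2A.

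Also among the 15 lowest ratios were genes of the synapse and the cell surface. CDH7, a cadherin, had 4.0 and 3.1 CPM in animals 1 and 2 against 157 and 188, and SYT2, the synaptotagmin of fast-releasing terminals, 4.8 and 2.3 CPM against 150 and 167. COL25A1, a transmembrane collagen, was at 14.2 to 28.1 CPM against 605 to 761 CPM, and STXBP6, a SNARE-binding protein, at 7.4 to 39.6 CPM against 471 to 536 CPM. SFRP1, a secreted Wnt antagonist, gave no count in animal 1, at least 35.6-fold lower with the floor of 3 counts, and 1 count in animal 2. ESR1, the estrogen receptor, HTR4, a serotonin receptor, and SAMD5, MOXD1, GBA3, ST3GAL1 and ANKRD33B completed the set, each at 18.2 CPM or less in every Lamp5 library. On so few counts 1 library moved a ratio by more than 1.5-fold. The log2 ratio went from -5.78 to -4.47 for SFRP1 without 2A and from -4.96 to -4.19 for ESR1 without 2B. Without 1A it went from -4.91 to -4.15 for HTR4 and from -5.49 to -4.71 for SAMD5.

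A stricter view compared Lamp5 with each of the 17 other subclasses of the cortex, glutamatergic and non-neuronal ones included. Lamp5 had the highest level of all 18 subclasses for 331 of the 6526 measured genes (5.07%) and was among the 3 highest for 1128 (17.3%). It was highest for 8 of the 13 measured Lamp5 markers. The 5 most specific were NDNF at 77.1 ± 5.1 CPM (SD, n = 2) against at most 1.2 CPM (in Vip), CHRNA3 at 91.2 ± 39.0 against 4.3 (Pvalb), GRPR at 472 ± 21.1 against 44.6 (IT_D, a glutamatergic subclass), QRFPR at 208 ± 8.6 against 23.8 (Frem1) and LAMP5 at 188 ± 32.6 against 27.6 (IT_A, also glutamatergic). For each of these the closest subclass was a different one. Among nuclei, 25.4% of Lamp5 nuclei (94 of 370) held a UMI of both NDNF and LAMP5, against 0 of 3977 other labelled GABAergic nuclei, at median depths of 6568 and 6292 UMIs. A count of 0 allows a share of nuclei with both UMIs of up to 0.0754% by the floor of 3 counts (exact upper limit 0.0927%), and the pair is a description, since both genes are among the most specific in these same counts.

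The list of CGE and preoptic regulators had 11 measured members, of which 7 were higher in Lamp5 (PROX1, NR2F2, NFIX, NFIB, NFIA, ADARB2 and TOX2), 1 was lower (NPAS3), and NR2F1, ETV1 and MEIS2 passed neither threshold, with a median log2 ratio of 1.63. With the 4 reference subclasses weighted equally, ADARB2, NR2F2 and PROX1 were no longer called and the median was 0.38. NFIB, a transcription factor, was at 1540 and 1513 CPM in animals 1 and 2 against 234 and 229, the highest level of all 18 subclasses. PROX1, the homeobox factor of CGE interneurons, was at 67.8 and 90.7 CPM against 26.7 and 24.2. Vip nuclei held more of it, with 192 CPM, and Frem1 nuclei 89.0 CPM.

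ADARB2, an RNA-binding protein of the CGE lineage, was at 1208 and 975 CPM in Lamp5 nuclei, below the 2057 and 1864 CPM of Frem1 and Vip nuclei and above the 5.0 and 6.8 CPM of Pvalb and Sst. Of the 7 measured MGE regulators, LHX6, SOX6 and SATB1 were lower and none was higher. SATB1, a chromatin organiser, was at 36.3 and 34.9 CPM against 377 and 306. MAF, MEF2C, TCF4 and ZEB2, which interneurons of several origins express, lay within 2-fold of the reference, for instance MAF at 432 and 405 CPM against 631 and 542. LHX6 was seen in 1.1% of Lamp5 nuclei, the mean of the animals, against 1.6% in Frem1 and 2.2% in Vip nuclei. It was 0.69% and 0.81% in the glutamatergic nuclei of animals 1 and 2 and 0.49% and 0.53% in the non-neuronal nuclei, and the Lamp5 shares rest on 2 nuclei in each animal.

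**Figure D3:**
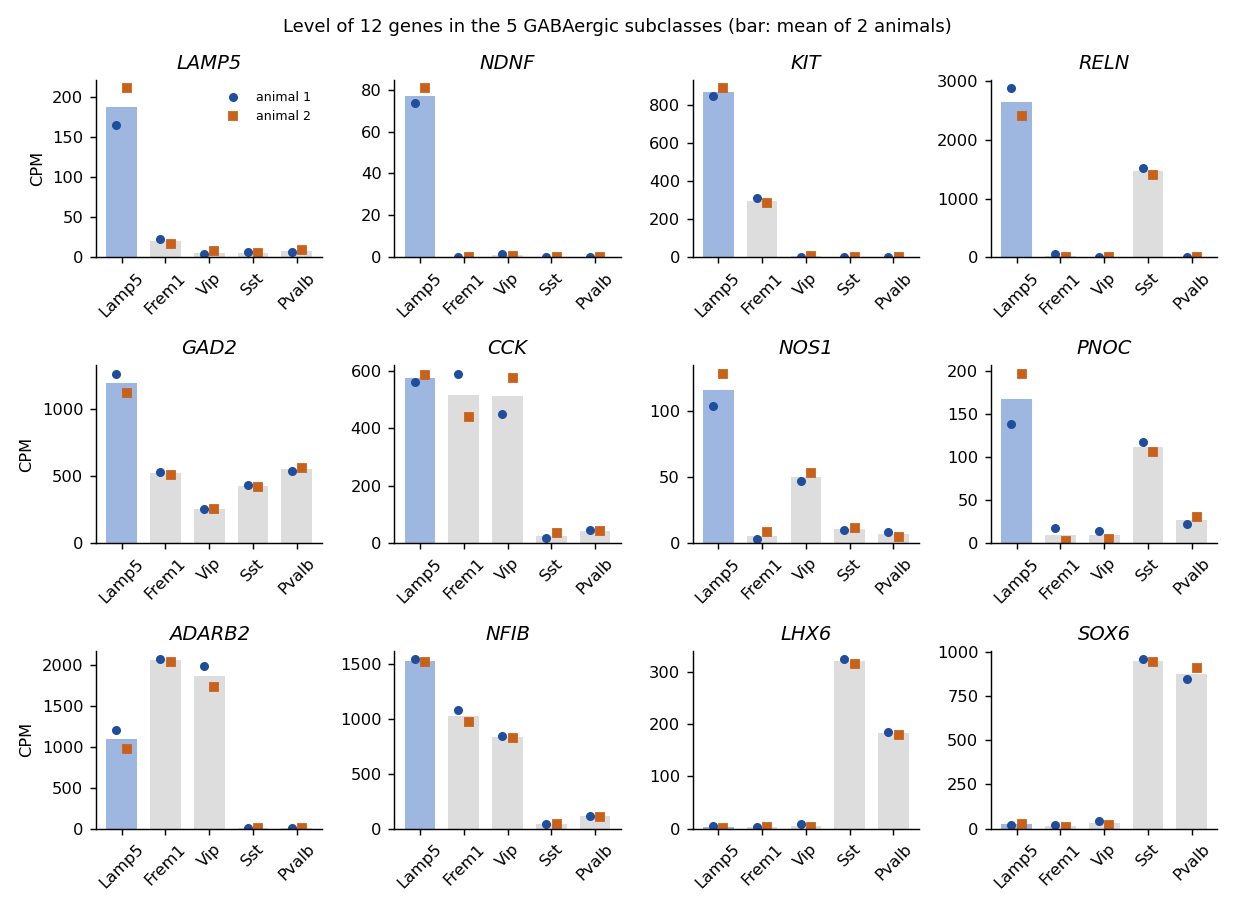
CPM of 12 genes in the 5 GABAergic subclasses, with a bar for the mean and a point for each of the 2 animals. LAMP5 and NDNF stand out in Lamp5 alone, KIT is shared in part with Frem1 (298 CPM), RELN with Sst (1466 CPM) and CCK with Frem1 and Vip (516 and 514 CPM), whereas LHX6 and SOX6 are high in Sst and Pvalb.

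GABA handling was that of an inhibitory neuron with a tilt to GAD2. GAD1, the other GABA-synthesising enzyme, was at 495 and 496 CPM in the Lamp5 nuclei of animals 1 and 2 against 466 and 501, and the vesicular transporter SLC32A1 at 33.1 and 31.0 CPM against 44.9 and 36.7. GAD2, by contrast, had its highest level of the 18 subclasses here, with a log2 ratio of 1.28 ± 0.14 and Pvalb next at 547 CPM. None of the 10 measured GABA receptor subunits passed the threshold in either direction, with a median log2 ratio of 0.23. With 5.87% of all measured genes higher and 7.42% lower, a count of 0 among 10 is near the background.

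Of the 6 measured neuropeptide precursors, CCK and PNOC were higher and SST, VIP, CRHBP (a binding protein of corticotropin-releasing hormone) and SCG2 lower. CCK, the precursor of cholecystokinin, was at 564 and 587 CPM against 115 and 125, with Frem1 and Vip nuclei at 516 and 514 CPM, so that it separated these 3 subclasses from Sst (25.2 CPM) and Pvalb (43.2 CPM). PNOC, the precursor of nociceptin, was at 138 and 197 CPM, next to 112 CPM in Sst and 9.6 and 9.7 CPM in Frem1 and Vip, so it separated Lamp5 from those subclasses and not from Sst.

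NOS1, the neuronal nitric oxide synthase, was at 103 and 128 CPM in Lamp5 nuclei of animals 1 and 2 against 11.4 and 11.6, the highest of all subclasses with Vip next at 49.7 CPM. A NOS1 UMI was present in 41.7% and 49.0% of Lamp5 nuclei of animals 1 and 2, against 17.4% and 19.7% in Vip, 3.9% and 3.3% in Sst and 0.32% and 0.53% in non-neuronal nuclei. After thinning to 2000 UMIs the shares were 14.8% and 22.5% in Lamp5, 6.9% and 10.3% in Vip, 1.5% and 1.2% in Sst and 0.31% and 0.56% in non-neuronal nuclei. Nuclei below 2000 UMIs were left out of the thinned shares. These were 26 of 370 in Lamp5, 55 of 506 in Vip, 139 of 1020 in Sst and 3728 of 8267 non-neuronal nuclei. Of the 7 measured genes of nitric oxide and cyclic GMP signalling, 3 were higher and none was lower. The shares over all measured genes were 5.87% and 7.42%. Beside NOS1, the higher genes were the guanylate cyclase subunit GUCY1A1 and the cyclic GMP-dependent kinase PRKG2. GUCY1A1 stood at 33.1 and 43.4 CPM against 6.7 and 8.1, and PRKG2 at 47.6 and 53.5 CPM against 11.7 and 12.5.

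Of the 52 receptors for modulators with a symbol, 15 were measured. Of these, 7 were higher (CHRNA3, CHRNA4, ADRA1B, HCRTR2, HRH1, OPRK1 and SSTR4), 2 lower (HTR4 and OPRD1) and 6 neither. CHRNA4, HCRTR2 and HRH1 were no longer called with the subclasses weighted equally. CHRNA4, a nicotinic receptor subunit, was at 91.7 CPM in Lamp5 as the mean of the animals, against 120 in Vip, 86.4 in Frem1, 74.5 in Sst and 9.2 in Pvalb. A gene such as CHRNA3, ADRA1B or SSTR4 was measured only through its level in Lamp5, so it had to differ and the counts give no lean of the list. The adrenergic receptor ADRA1B was at 54.9 and 47.3 CPM against 6.7 and 5.3, the somatostatin receptor SSTR4 at 50.1 and 45.7 CPM against 5.2 and 4.5, and the kappa opioid receptor OPRK1 at 122 and 80.6 CPM against 27.3 and 21.5. OPRK1 and SSTR4 were highest in Lamp5 of all subclasses. HCRTR2, an orexin receptor, was higher than the reference at 377 and 447 CPM but below Vip, at 591 CPM. OPRD1, the delta opioid receptor, was at 18.6 and 12.4 CPM against 71.7 and 69.0, with 91.1 and 64.7 CPM in Pvalb and Sst but 2.8 and 3.8 CPM in Frem1 and Vip.

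Glutamate receptors were mixed, with 2 of 18 measured members higher and 5 lower, beside 5.87% and 7.42% of all measured genes. Their median log2 ratio was 0.10, which became -0.02 without library 1A. GRIN2A, an NMDA receptor subunit, was at 825 and 1107 CPM against 255 and 232, and GRIK4, a kainate receptor subunit, at 1403 and 1389 CPM against 297 and 299. On the low side, the kainate subunit GRIK3 was at 41.2 and 25.6 CPM against 641 and 525, the lowest of the 18 subclasses, and the metabotropic receptor GRM8 at 8.1 and 17.8 CPM against 255 and 221. GRIK1, GRIN2C and GRM7 were the other lower members. GRIA2, the AMPA receptor subunit that limits calcium entry, was at 2840 and 3099 CPM against 1426 and 1506, its highest level of all subclasses, yet it missed the 2-fold call in animal 1.

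Among 38 measured potassium channel genes, 4 were higher and 11 lower, with a median log2 ratio of -0.22, beside 5.87% and 7.42% of all measured genes. The higher ones were KCNQ5, an M-current subunit (495 and 495 CPM against 80.1 and 110), the sodium-activated KCNT2 (2160 and 2719 against 594 and 609), KCNH8 and KCNS2. KCNT2 was as high in Frem1 and Vip, at 3110 and 2547 CPM, and neither it nor KCNS2 was called with the subclasses weighted equally, nor were KCNA1 and KCNC1 among the lower genes. KCNC1, a Kv3 channel of fast-spiking cells, was at 288 and 295 CPM against 615 and 656, and KCNT1, a relative of KCNT2, at 75.1 and 84.5 CPM against 467 and 419. The leak channels KCNK1, KCNK3, KCNK10 and KCNK12 were all among the lower genes, KCNK3 at 10.5 and 8.5 CPM against 110 and 103.

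Of 22 measured sodium, calcium, HCN and TRP channel genes, the calcium channel subunit CACNB2 and the cation channel TRPC7 were higher. CACNB2 was at 823 and 791 CPM against 119 and 104, and TRPC7 at 460 and 478 CPM against 95.8 and 95.4. Another 6 were lower, among them CACNA1H, CACNA1C, CACNA2D3, CACNB4 and CACNG3. For all measured genes the shares were 5.87% higher and 7.42% lower. CACNA1H, a T-type calcium channel, gave 1 count in animal 1 and 3 in animal 2, and CACNB4 was at 456 and 513 CPM against 1282 and 1222. The CACNB4 contrast lay with Pvalb and Sst, at 1458 and 1322 CPM, since Frem1 and Vip nuclei held 533 and 339 CPM, and the gene was not called with the 4 subclasses weighted equally. CACNB2 was at 554 CPM in Vip, within 2-fold of Lamp5.

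In the release machinery, 13 of 17 measured genes passed neither threshold, beside 5659 of all 6526 measured genes. RIMS1, a scaffold of the active zone, was higher at 3919 and 3698 CPM against 1862 and 1712 (not called under equal weights), and SV2B was higher at 424 and 389 CPM against 41.9 and 53.3. SV2B is otherwise high in the glutamatergic subclasses, up to 1006 CPM in L6CT, and the other GABAergic subclasses held 34.2 to 54.8 CPM. After thinning to 2000 UMIs, SV2B was found in 50.9% of Lamp5 nuclei and 8.1% of other GABAergic nuclei, as means of the animals. Without thinning these were 77.3% and 20.4%. The thinned shares leave out nuclei below 2000 UMIs, 26 of 370 in Lamp5 and 361 of 3977 in the others. SYT2 and STXBP6 were the lower genes of this list.

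The extracellular matrix list held 17 measured genes, of which 5 were higher, 8 lower and 4 neither, with a median log2 ratio of -1.24. Among all measured genes 5.87% were higher and 7.42% lower. RELN, the secreted glycoprotein reelin, was at 2401, 3332, 2424 and 2371 CPM in the 4 Lamp5 libraries, against 374 and 301 CPM in the reference of animals 1 and 2 and 1466 CPM in Sst nuclei. Also higher were the sulfotransferases CHST9 and NDST4, CHST9 at 371 and 295 CPM against 14.1 and 31.4, and NDST4 at 39.6 and 47.3 CPM against 11.1 and 7.2. Of the link proteins, HAPLN1 was higher and HAPLN4 lower (1.6 and 6.2 CPM against 32.5 and 31.7, a contrast with Pvalb at 51.7 CPM and not called under equal weights), and tenascin R, TNR, was also lower (16.2 and 20.2 CPM against 239 and 229). The collagens COL4A1, COL19A1 and COL25A1 and the laminins LAMA1 and LAMA4 were lower as well.

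Adhesion and guidance genes were the largest list, with 63 measured members, 13 higher, 24 lower and a median log2 ratio of -0.50, beside 5.87% and 7.42% of all measured genes. With the 4 subclasses weighted equally, 7 of the 13 and 22 of the 24 were still called. The higher group included the netrin receptor UNC5C (1919 and 1932 CPM against 261 and 211), the secreted SEMA3A (1141 and 937 CPM against 152 and 142) and the slit receptor ROBO1 (555 and 614 CPM against 230 and 270). SLIT3 and SLIT2 were inverted, since SLIT3 was at 565 and 518 CPM against 28.2 and 30.7. Among the lower genes, neurexin 3, NRXN3, was at 1201 and 985 CPM against 10901 and 9052, and teneurins were low together, TENM1 at 17.0 and 19.4 CPM against 257 and 280, TENM2 at 452 and 490 CPM against 2660 and 2586, and TENM3 at 32.3 and 28.7 CPM against 218 and 220. TENM4 was lower in both animals but within 2-fold.

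Of 21 measured growth factor genes, 6 were higher and 8 lower, beside 5.87% and 7.42% of all measured genes. Their median log2 ratio was 0.17. KITLG, the ligand of KIT, was at 7.3 and 9.3 CPM in Lamp5 against 36.3 and 47.7 in the reference, with 280 and 179 CPM in Frem1 and Vip but 5.5 and 3.9 CPM in Pvalb and Sst. The Wnt potentiator RSPO2 was higher (523 and 413 CPM against 104 and 87.0) and its relative RSPO3 lower (8.9 and 10.1 CPM against 48.9 and 56.0). The morphogen BMP3, the growth factors FGF18 and PDGFD and the receptor FGFR2 were the other higher genes. NTRK3, the receptor of neurotrophin 3, was at 88.8 and 152 CPM against 497 and 558.

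**Figure D4:**
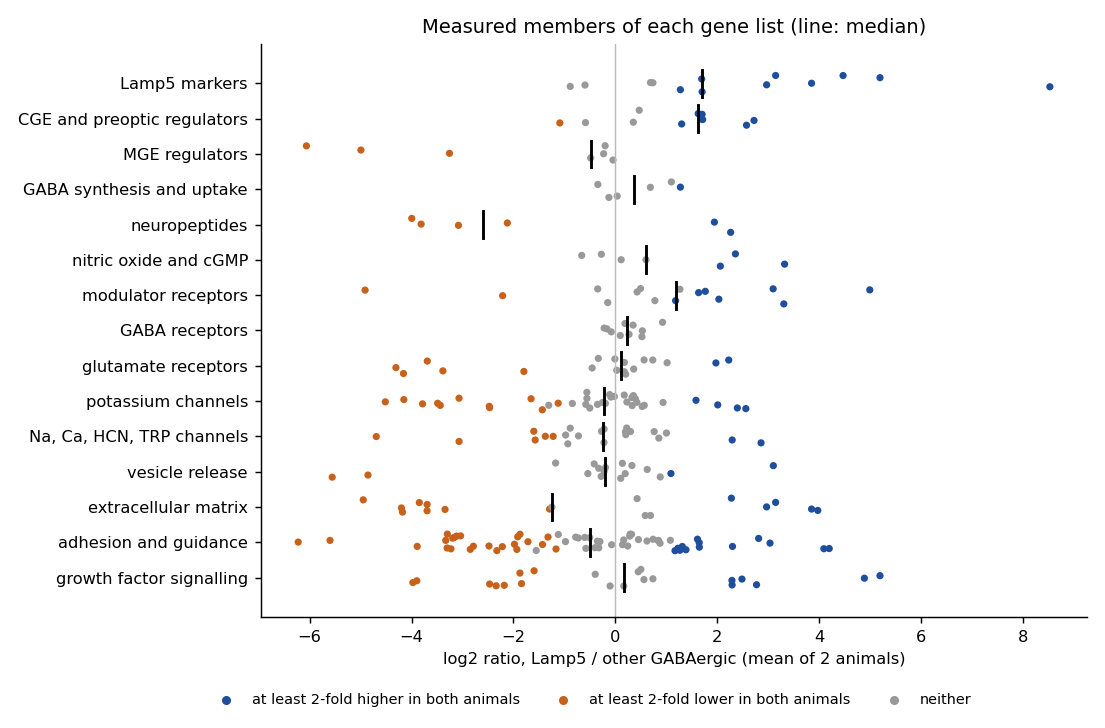
Mean log2 ratio of Lamp5 to other labelled GABAergic nuclei for every measured member of 15 gene lists; each point is a gene, coloured by whether it was at least 2-fold higher, at least 2-fold lower or neither in both animals, and the line is the median. Medians run from 1.70 for Lamp5 markers and 1.63 for CGE and preoptic regulators to -1.24 for extracellular matrix and -2.60 for neuropeptides, while GABA receptors sit near 0.

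Across all genes Lamp5 nuclei resembled the Frem1 nuclei most. Over 10179 genes the Spearman correlation of log levels with Lamp5 was 0.913 for Frem1, 0.893 for Vip, 0.883 for Pvalb and 0.876 for Sst, as means of the animals, and 0.843 or less for each glutamatergic and non-neuronal subclass. These values run across genes of sums that share libraries and are a description. When each nucleus was relabelled from its 15 nearest neighbours among the nuclei of the other animal, 168 of 168 Lamp5 nuclei of animal 1 and 196 of 202 of animal 2 received the label Lamp5, a mean of 98.5% ± 2.1 (SD, n = 2). Of the 6 that did not, 4 went to Frem1, 1 to Vip and 1 to Pvalb, and in the other direction 5 Frem1 nuclei and 1 Pvalb nucleus of animal 1 were drawn to Lamp5.

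Set directly against Frem1, Lamp5 nuclei were higher for 336 of 6341 measured genes (5.3%) and lower for 327 (5.16%), and the libraries did not overlap for 26.5%. RELN marked the difference most, at 50.8 and 11.5 CPM in the Frem1 nuclei of animals 1 and 2, a log2 ratio of 6.76 ± 1.33. TLL1, a secreted metalloprotease, was at 305, 497, 395 and 403 CPM in the Lamp5 libraries against 3.7 to 11.5 CPM. NIBAN1, the kinase PRKCH and the opsin OPN3 followed, and each gave 2 counts or fewer in the Frem1 nuclei of either animal against 107 or more in Lamp5.

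The genes lowest in Lamp5 against Frem1 were the calcium-binding proteins NECAB2 and HPCAL1, the GABA receptor subunit GABRG1, the sialyltransferase ST8SIA6 and CACNA1H. NECAB2 gave 1 and 4 counts in Lamp5 against 120 and 74 in Frem1, 132-fold (95% counting interval 23.3 to 5276) and 27.5-fold (10.3 to 104) lower. GABRG1 gave 1 count in each animal against 54 and 39. Of 10 measured CGE regulators, NFIA and TOX2 were higher in Lamp5 and NPAS3 was lower. Among modulator receptors, 5 of 13 were higher (ADRA1A, ADRA1B, CHRNA3, HTR2A and OPRK1) and ADRA1D lower.

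Against Vip nuclei, 419 of 6470 measured genes were higher in Lamp5 (6.48%) and 426 lower (6.58%), and the libraries did not overlap for 31.6%. RELN again led, at 4.7 and 13.4 CPM in the Vip nuclei of animals 1 and 2 (log2 ratio 8.37 ± 1.24), followed by GRPR, KIT, the mechanosensitive channel PIEZO2 and PRKCH. PIEZO2 was at 903, 777, 782 and 817 CPM in the Lamp5 libraries against 3.3 to 12.9 CPM in the Vip libraries. Lower in Lamp5 were the calcium-binding protein calretinin, CALB2, with 2 and 1 counts against 275 and 250, the sulfotransferase CHST15, CACNA1H, VIP itself and the activin receptor ACVR1C. The VIP peptide gene gave no count in animal 1, at least 99.7-fold lower with the floor of 3 counts, and 5 counts in animal 2.

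The contrasts with the MGE subclasses were wider. Against Sst nuclei, 491 of 6471 measured genes were higher in Lamp5 (7.59%) and 534 lower (8.25%), with no overlap of libraries for 38.4%. Against Pvalb nuclei, 522 of 6523 were higher (8.0%) and 528 lower (8.09%), with no overlap for 45.1%. Of the Lamp5 markers, 11 of 13 measured were higher than in Sst and 10 of 13 than in Pvalb. RELN, at 1466 CPM in Sst nuclei, was not among the 11. LHX6, SOX6 and SATB1 were lower in both contrasts, as were the collagens COL25A1 and COL4A1, and NOS1, GUCY1A1 and PRKG2 were higher in both.

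The annotation divided the subclass into the types Lamp5_1 with 205 nuclei and Lamp5_2 with 165. In animal 1, 46 of the 84 Lamp5 nuclei of library 1A (54.8%) and 36 of the 84 of library 1B (42.9%) were Lamp5_1. In animal 2 these were 54 of 91 (59.3%) and 69 of 111 (62.2%). Per animal it was 48.8% (95% interval 41.0 to 56.6%) and 60.9% (53.8 to 67.7%), and the libraries of an animal did not differ by Fisher's exact test (p = 0.165 and 0.772, adjusted p = 0.329 and 0.772 over the 2 tests). The types differed in depth, Lamp5_1 having a median of 5566 ± 835 UMIs and Lamp5_2 of 7241 ± 17 (mean of animal medians ± SD, n = 2). Nuclei under 2000 UMIs numbered 26 of 205 in Lamp5_1 and 0 of 165 in Lamp5_2, and all 6 Lamp5 nuclei that were relabelled otherwise belonged to Lamp5_1. The part of depth in the contrasts below was not tested beyond thinning.

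Of 6071 measured genes, 54 were higher in Lamp5_1 (0.889%) and 57 in Lamp5_2 (0.939%), and the libraries did not overlap for 8.42%. Thinning to 2000 UMIs left out nuclei below that depth, 26 of 205 in Lamp5_1 and 0 of 165 in Lamp5_2. It thus changed both the depth and the set of nuclei. After thinning, 132 and 124 genes were called, of which 35 and 30 were among the 54 and 57. RELN was the largest, at 206, 271, 469 and 295 CPM in the Lamp5_1 libraries 1A, 1B, 2A and 2B and at 4794, 5202, 4809 and 4793 CPM in Lamp5_2, a log2 ratio of -4.03 ± 0.56 for Lamp5_1 over Lamp5_2. A RELN UMI was present in 26.0% of Lamp5_1 and 98.8% of Lamp5_2 nuclei as means of the animals, and in 19.5% and 96.9% after thinning to 2000 UMIs. Of the RELN counts of the subclass, 3432 of 3562 in animal 1 and 2822 of 3094 in animal 2 came from Lamp5_2. Lamp5_1, at 311 CPM, lay between Sst (1466 CPM) and the Frem1, Vip and Pvalb nuclei (31.2, 9.1 and 4.5 CPM).

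FREM1 showed the opposite division. It was at 120, 113, 113 and 158 CPM in Lamp5_1 and at 0 to 20.4 CPM in Lamp5_2 (log2 ratio 3.65 ± 0.47, or 4.40 without library 2A), so that Lamp5_1 exceeded the Frem1 nuclei, at 62.3 CPM, and Lamp5_2 did not reach them. PBX3, a homeobox cofactor, was at 623, 505, 271 and 304 CPM in Lamp5_1 against 25.5 to 72.4 CPM in Lamp5_2 (3.33 ± 0.46). The other genes highest in Lamp5_1 by the rule were the glycine receptor subunit GLRA2, the semaphorin SEMA5B and the GABA receptor subunit GABRA5. GLRA2 rested on 3 and 2 counts in Lamp5_2, and its log2 ratio of 3.71 became 0.90 after thinning and was 4.33 without library 1A and 2.33 without 2A.

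SLIT3 was at 98.1, 209, 153 and 103 CPM in Lamp5_1 and 845, 953, 968 and 997 CPM in Lamp5_2 (-2.78 ± 0.20), and SEMA6A, a transmembrane semaphorin, at 4.2 to 30.4 CPM against 121 to 142 CPM. The semaphorin receptor NRP1 was at 4.2 to 15.2 CPM against 30.6 to 49.0 CPM, and SPHKAP, a kinase anchoring protein, at 3.2 to 45.9 CPM against 75.2 to 176 CPM. None of these groups of libraries overlapped, although NRP1 gave only 3 and 7 counts in Lamp5_1. The log2 ratio of SEMA6A was -2.81, and -3.59 without library 1A, and that of SPHKAP -2.17, and -3.47 without 1B.

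**Figure D5:**
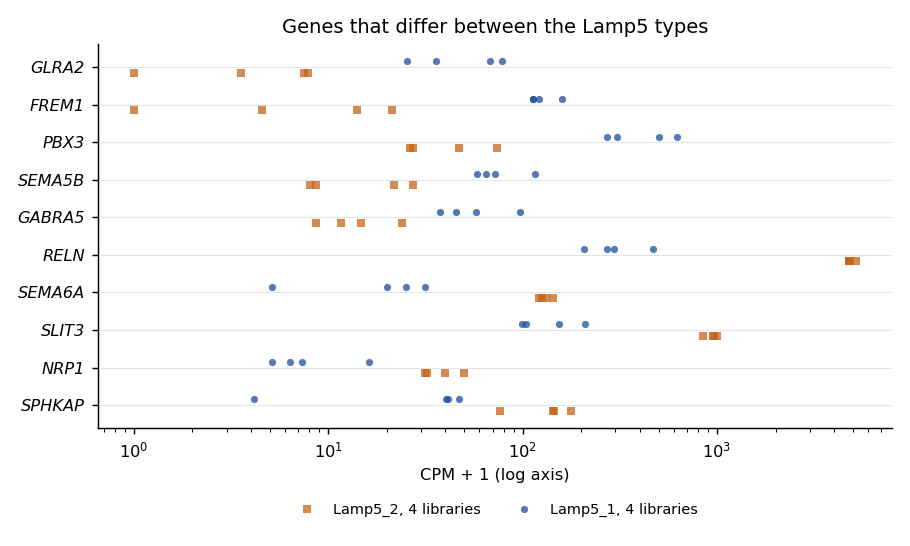
Level of the 10 genes named for the contrast between the Lamp5 types, as CPM + 1 on a log axis; circles are libraries of Lamp5_1 and squares libraries of Lamp5_2. RELN in Lamp5_2 lies at 4793 CPM or more against 469 CPM or less in Lamp5_1, and FREM1 at 113 CPM or more in Lamp5_1 against 20.4 CPM or less in Lamp5_2.

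Several genes named for the subclass were at like levels in both types. Against the other GABAergic nuclei, Lamp5_1 was higher for 346 of 6448 measured genes (5.37%) and lower for 484 (7.51%), with no overlap of libraries for 36.1%. Lamp5_2 was higher for 393 of 6586 (5.97%) and lower for 513 (7.79%), with no overlap for 37.1%. RELN was among the higher genes in Lamp5_2 but not in Lamp5_1, and FREM1 in Lamp5_1 but not in Lamp5_2. SLIT3 and CREB3L2 (19.1 and 74.5 CPM) also differed between the types. LAMP5 was at 190 and 187 CPM in Lamp5_1 and Lamp5_2, KIT at 872 and 873 CPM, CHRNA3 at 94.3 and 88.7 CPM, GRPR at 502 and 448 CPM, and QRFPR at 223 and 196 CPM, as means of the animals. NDNF was at 63.2 and 91.0 CPM, lower in Lamp5_1 in both animals but within 2-fold. By list, none of the measured CGE regulators (10), glutamate receptors (15), potassium channels (31) or release genes (14) passed the threshold between types, where the shares over all measured genes were 0.889% and 0.939%, so a count of 0 is near the background. Adhesion and guidance genes gave 8 of 51, with LRRTM3, PLXNA2 and UNC5D higher in Lamp5_1 and CDH9, NRP1, SEMA6A, SEMA6D and SLIT3 higher in Lamp5_2. The orexin receptor HCRTR2 was at 623 CPM in Lamp5_1 and 214 CPM in Lamp5_2.

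Between the animals, Lamp5 nuclei differed in few genes. At a ratio of 2 with no overlap of libraries, 53 of 6713 genes were higher in animal 2 (0.79%) and 130 in animal 1 (1.94%), against 5 (0.0754%) and 33 (0.498%) of 6629 in the larger sums of the other GABAergic nuclei. For this contrast a gene was measured when it reached 20 CPM in either animal. With 1 animal on each side there is no test of the difference between the animals. Of the 183 Lamp5 genes, 16 were also called in the same direction in the other GABAergic nuclei and 150 had the same sign there. Equal signs were not counted over all measured genes, so the 150 have no background share beside them. PTPRQ, a receptor phosphatase, was at 28.1 and 20.6 CPM in libraries 1A and 1B and at 1.5 and 0 CPM in 2A and 2B, and PCDH7, a protocadherin, at 82.5 and 50.6 against 14.7 and 4.9 CPM. Highest in animal 2 was the secreted protein TAFA2, at 14.9 and 22.1 CPM in animal 1 and 56.0 and 83.5 CPM in animal 2. TAFA2 went the other way in the other GABAergic nuclei, at 310 and 249 CPM in animals 1 and 2. PCDH7 was at 256 and 228 CPM there and PTPRQ at 5.1 and 3.8 CPM. Of the listed activity-regulated genes, only FOSL2 and HOMER1 reached 20 CPM in Lamp5 nuclei, and FOS had no count. HOMER1 was at 170 and 257 CPM in animals 1 and 2, and at 196 and 322 CPM in the other GABAergic nuclei. PRL was higher in animal 1 in both groups, at 52.5 and 16.3 CPM in Lamp5 and 24.6 and 10.6 CPM in the others, and FOSL2 was at 30.7 and 21.7 CPM in Lamp5 and at 10.2 and 19.6 CPM in the others, lower in animal 1.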

How the data were processed

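Reads of nuclei from V1 of 2 opossums were aligned by the authors with Cell Ranger, introns included, to ASM229v1, using Ensembl gene models lengthened at the 3′ end; the submitters' processing notes give version 6.1.1 and the matrix headers 7.1.0. The authors deposited raw UMI counts per gene and nucleus, and metadata with class, subclass and type labels and a Scrublet doublet score, a fraction that the authors computed. Of 30800 genes, 11590 (37.6%) had a symbol in the files, and others were counted but not named. Extended 3′ ends, introns and overlapping or antisense genes can add reads to a neighbour.

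Counts were summed per animal and label with Python 3.11.15, scipy 1.17.1 and numpy 2.4.6 (tables in pandas 2.3.3, neighbours in scikit-learn 1.9.0, plots in matplotlib 3.10.9) and R 4.3.3 (edgeR 4.0.16 and DESeq2 1.42.0, for scaling factors only). Ratios were taken within animals, with a measured level of 20 CPM, a ratio of 2 in both animals, and 3 counts as the floor for a count of 0. Doublets called by Scrublet stayed in. Thinning drew 2000 UMIs from each nucleus and left out nuclei with fewer. Named genes had a symbol, a call in both animals and no overlap of libraries, and were the 15 largest ratios in each direction against other GABAergic nuclei, 5 against Frem1, Vip, the other type and the other animal, and the 5 most specific among subclasses, beside the listed members. Shares carry exact 95% intervals. Relabelling used 3000 variable genes, 30 principal components, 15 neighbours and at most 500 nuclei per subclass. The calling step, without the summing, was run on simulated group totals for Lamp5 against other GABAergic nuclei. There, 200 of 200 genes changed 4-fold were recovered among 6182 measured genes, with 2 false calls. The changed genes lay above 20 CPM, the change exceeded the ratio of 2 and the spread was preset. Recovery near these thresholds was therefore not tested. The members and gene lists were chosen with earlier results of these data known. Alternatives covered scaling, filters, pseudocount, ratio, weighting, doublets, thinning, labels and leaving out animals or libraries. Some listed genes are not reported here by name.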

Additional observations from a re-analysis of the deposited data

How the results depend on the processing

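No paired analysis was possible because the samples form 1 group and no test was made to which a replicate block could be added. The ratios themselves pair the groups of nuclei within each animal. No named gene changed sign under any alternative run, and the list medians changed sign in 2 cases, glutamate receptors without library 1A (-0.02) and glutamatergic markers after thinning (-0.01). With the 4 reference subclasses weighted equally, 286 genes were higher (260 of the 383) and 444 lower (359 of the 484), and the ratios of 20 of 30 named genes moved by more than their spread, as did 32 of 60 after thinning. Without a filter on low values, 1142 genes were higher and 1020 lower against other GABAergic nuclei, 637 and 807 against Frem1, and 806 and 925 against Vip. At a ratio of 4 these were 145 and 239, 137 and 130, and 184 and 204. At 50 CPM, 293 were lower against other GABAergic nuclei and 207 against Frem1, and between the animals 14 were higher in animal 2 and 24 in animal 1. With the left-out GABAergic nuclei in the denominator, the Lamp5 share was 6.54%. Leaving out an animal asks for a ratio of 2 in 1 animal only, and gave 515 to 547 genes higher and 499 to 528 lower against Frem1, and over animals and libraries 52 to 262 and 70 to 323 between the types. After thinning to 2000 UMIs, 132 and 124 genes separated the types, with fewer counts behind each and 26 Lamp5_1 nuclei left out. The alternatives on the types, on 1 CPM and a ratio of 4 against Frem1 and Vip, and on each animal's label agreement and depth were chosen after seeing the data. With 2 animals, the spread of any value is poorly known, and levels under about 20 CPM rest on few counts.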

Other observations

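The authors left GABAergic nuclei in 2 kinds of cluster out of the annotation, which the comparisons above do not use. Of the 730 that they set aside as ambiguous, 1 held a UMI of both NDNF and LAMP5 (0.137%, exact 95% interval 0.00347 to 0.761%), at a median depth of 1871 UMIs. Of the 604 in doublet clusters, 2 did (0.331%, 0.0401 to 1.19%), at a median of 8039 UMIs. A count of 0 would have allowed 0.411% and 0.497%. The ambiguous nuclei were also labelled from the annotated nuclei of the other animal. Lamp5 was given to 3 of 302 in animal 1 and 1 of 428 in animal 2. In animal 1, 98 were given Vip, 88 Frem1, 67 Sst and 46 Pvalb. In animal 2, 163 were given Vip, 12 Frem1, 39 Sst and 213 Pvalb.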
